A study of Caenorhabditis elegans with 4 samples.

Results

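The genes described here encode the translation elongation factors of Caenorhabditis elegans. They were chosen by name, as 8 genes: eef-1A.1 (F31E3.5), eef-1A.2 (R03G5.1), eef-1B.1 (F54H12.6), eef-1B.2 (Y41E3.10), eef-1G (F17C11.9), eef-2 (F25H4.6), iff-1 (T05G5.10) and iff-2 (F54C9.1). Of the 17096 genes in the count table, 7 are members, and eef-2 was not analysed here. RNA came from whole animals of N2, the wild-type laboratory strain, which ate Bacillus subtilis PY79 or Escherichia coli OP50, the standard laboratory food. The animals had reached day 13 or day 4 of adulthood at harvest, which gives 4 groups: PY79 day 13, PY79 day 4, OP50 day 13 and OP50 day 4. Each group is 1 library, made from the pooled animals of a synchronized population that was kept on its diet since the L1 larva, and all 4 share the strain. FUDR, a drug against progeny, is mentioned for the study's ageing samples as a whole and not named for these groups. The study used this diet as another condition that lengthens life, beside overexpression of the GATA factor gene elt-2.

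Elongation is the part of translation in which the ribosome lengthens the peptide chain. The factor eEF1A carries each aminoacyl-tRNA to the ribosome at the cost of GTP, the eEF1B complex recharges eEF1A with GTP, and eEF2 then moves the ribosome along the messenger RNA. eIF5A, which was first named as an initiation factor, helps the ribosome through stretches of sequence where peptide bonds form slowly, and it works only after one of its lysines has been converted to hypusine.

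The 7 genes were counted in libraries of very unequal depth. The reads of the chosen transcript rows numbered 4469802 for PY79 day 13, 4838114 for PY79 day 4, 28552961 for OP50 day 13 and 28650595 for OP50 day 4. The OP50 library was 6.39 times as deep at day 13 and 5.92 times as deep at day 4, so diet and depth cannot be told apart in the libraries as deposited. The 82 genes of cytosolic ribosomal proteins took between 57.0% and 65.0% of the reads of a library. All 7 members passed the filter of at least 10 reads in at least 1 library, as did 9032 genes in all. Levels are given as CPM, the reads of a gene relative to a fixed library total, after libraries were scaled by TMM factors, which assume that most genes do not differ between libraries. Reads came from the 3' ends of transcripts, which per the study's methods makes the count independent of gene length, so levels of different genes are compared here per transcript end. In whole worms, fewer cells of a type and less RNA per cell cannot be told apart.

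Because there is 1 library per group, the ratio of 2 libraries has an exact 95% interval for counting error only, and a difference was called where the ratio reached 2-fold and the interval excluded 1. Across the 4 libraries, edgeR's quasi-likelihood test was fitted with diet and day as additive terms, and "rose" and "fell" are used for an adjusted p under 0.05. That test has 1 residual degree of freedom, and its spread is the departure from additivity of diet and day, not the spread of replicate cultures. In the main fit each gene's own spread was replaced by a value pooled over the 9032 genes, so small p-values rest on this pooling. With total reads the pooling was weaker (prior degrees of freedom, the weight of the pooled value, of 4.83).

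The first result is the diet. Of the 7 members, 6 fell on PY79 and 0 rose in edgeR's test, where 17.0% of the 9032 genes tested fell and 14.8% rose. These 6 were eef-1A.1, eef-1B.1, eef-1B.2, eef-1G, iff-1 and iff-2, and each was lower in both PY79 libraries than in both OP50 libraries. The share of all genes tested with such a separation is not given here, so here and below it is a description only. By the rule on single pairs of libraries, 6 members were lower at day 13 and 0 higher, against 22.3% lower and 22.6% higher among all genes tested. At day 4 the counts were again 6 lower and 0 higher, against 23.4% lower and 25.4% higher. Scaling without ribosomal protein genes, or without the 3% most abundant genes, left 4 lower and 1 higher at day 4, since eef-1G and iff-1 lost the call and eef-1A.2 gained one, and it left 5 or 4 that fell in edgeR's test. The 7th gene, eef-1A.2, had more scaled reads on PY79 at both ages, but it was not called. The median log2 ratio of the 7 members was -2.48 at day 13 and -1.83 at day 4, and that of all genes tested was 0.01 at day 13 and -0.09 at day 4. At an unadjusted p under 0.05, edgeR's main fit likewise had 0 members that rose with diet, and so did DESeq2's Wald test. Under the scalings without ribosomal protein genes and without the 3% most abundant genes, eef-1A.2 was higher on PY79. Its unadjusted edgeR p was 0.0274 and 0.0215 there (adjusted p = 0.0642 and 0.0543).

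**Figure D1:**
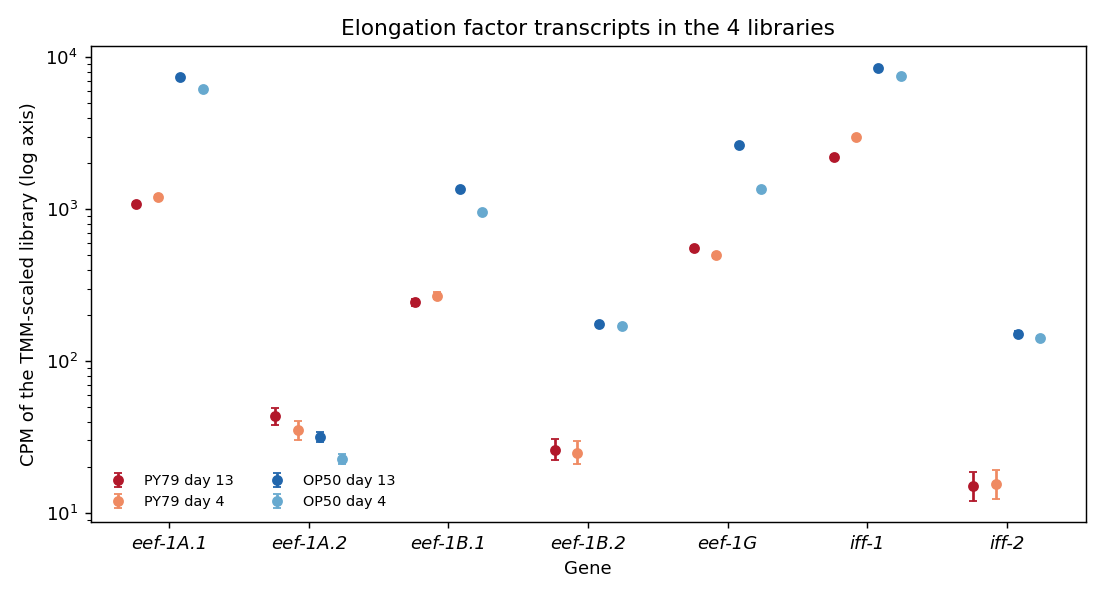
Level of each elongation factor gene in each library, in CPM of the TMM-scaled library on a log axis, with bars for the exact 95% counting interval of 1 library (no replicates). For 6 genes both PY79 libraries (red and orange) lie below both OP50 libraries (blue), while eef-1A.2 was at 43.3 and 35.0 CPM on PY79 and 31.5 and 22.7 CPM on OP50.

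The highest counts of the carrier of aminoacyl-tRNA came from eef-1A.1, formerly eft-3, whose promoter is widely used to drive transgenes in worms. It had 6327 reads (1082 CPM) in PY79 day 13 and 6528 reads (1209 CPM) in PY79 day 4, against 155952 reads (7354 CPM) in OP50 day 13 and 164026 reads (6208 CPM) in OP50 day 4. The groups of the 2 diets did not overlap. It ranked 107th and 112th among all genes on PY79 at day 13 and day 4, and 68th and 59th on OP50. At day 13 it was 6.80-fold lower on PY79 (95% interval 6.63 to 6.97), and at day 4 it was 5.14-fold lower (5.01 to 5.26). It fell with diet by 2.56 on the log2 scale in edgeR's test (adjusted p = 6.91e-05).

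The second eEF1A gene, eef-1A.2, formerly eft-4, encodes a protein nearly identical to that of eef-1A.1, so the split of reads between the pair is uncertain. It had 253 reads (43.3 CPM) in PY79 day 13 and 189 reads (35.0 CPM) in PY79 day 4, against 669 reads (31.5 CPM) in OP50 day 13 and 600 reads (22.7 CPM) in OP50 day 4. At day 13 the ratio of PY79 to OP50 was 1.37 (1.18 to 1.59) and at day 4 it was 1.54 (1.30 to 1.82), both short of 2-fold. edgeR's diet term was 0.54 on the log2 scale (adjusted p = 0.491). The share of eef-1A.2 in the reads of the pair was 3.85% (exact Clopper-Pearson 95% interval 3.39 to 4.34) in PY79 day 13 and 2.81% (2.43 to 3.24) in PY79 day 4, against 0.427% (0.395 to 0.461) in OP50 day 13 and 0.365% (0.336 to 0.395) in OP50 day 4. In every library, then, nearly all eEF1A reads were those of eef-1A.1, and on the rows used the share of eef-1A.2 was higher in both PY79 libraries.

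The count of eef-1A.2 depends on which of its 10 transcript rows is read. The row used, R03G5.1c.1, holds the most reads. A narrower row, R03G5.1d, held 12.6% of them in PY79 day 13 and 14.8% in PY79 day 4, against 53.5% in OP50 day 13 and 77.2% in OP50 day 4. On the narrower row eef-1A.2 had 32 and 28 reads on PY79 at day 13 and day 4, against 358 and 463 reads on OP50. The direction then turned: the ratio of PY79 to OP50 was 0.324 at day 13 and 0.296 at day 4, and the gene fell with diet in edgeR's test (log2 -1.69, adjusted p = 0.0213). The share of the pair was then 0.504% (0.345 to 0.710) in PY79 day 13 and 0.427% (0.284 to 0.617) in PY79 day 4, against 0.229% (0.206 to 0.254) in OP50 day 13 and 0.281% (0.257 to 0.308) in OP50 day 4, with overlapping intervals at day 4. This row was chosen after its values were seen, by a rule that sets a minimum share in OP50 day 4 alone. The direction of the diet difference in eef-1A.2 is therefore not settled by these counts.

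The exchange factor that recharges eEF1A is a complex, of which eef-1B.1 and eef-1B.2 encode subunits with nucleotide exchange activity. eef-1B.1 had 1422 reads (243 CPM) in PY79 day 13 and 1450 reads (269 CPM) in PY79 day 4, against 28779 reads (1357 CPM) in OP50 day 13 and 25219 reads (955 CPM) in OP50 day 4. It was 5.58-fold lower on PY79 at day 13 (5.29 to 5.89) and 3.55-fold lower at day 4 (3.37 to 3.75), and it fell by 2.15 on the log2 scale (edgeR adjusted p = 0.00109). The diets did not overlap.

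The less abundant subunit gene, eef-1B.2, had 153 reads (26.2 CPM) in PY79 day 13 and 135 reads (25 CPM) in PY79 day 4, against 3714 reads (175 CPM) in OP50 day 13 and 4469 reads (169 CPM) in OP50 day 4. It was 6.70-fold lower on PY79 at day 13 (5.70 to 7.92) and 6.77-fold lower at day 4 (5.70 to 8.09), and it fell by 2.75 on the log2 scale (edgeR adjusted p = 5.68e-05). With total reads it was 3.8-fold lower at day 13 (3.23 to 4.5) and 5.59-fold lower at day 4 (4.71 to 6.68), so how its diet difference compared between the ages depends on the scaling. On its narrower row it was 9.13-fold lower at day 13 and 10.2-fold lower at day 4. Its share of the reads of the pair was 9.71% (8.30 to 11.3) in PY79 day 13 and 8.52% (7.19 to 10) in PY79 day 4, against 11.4% (11.1 to 11.8) in OP50 day 13 and 15.1% (14.6 to 15.5) in OP50 day 4. At day 13 the intervals of the diets overlapped, while at day 4 the share was lower on PY79.

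The gamma subunit that holds this complex together is encoded by eef-1G. It had 3232 reads (553 CPM) in PY79 day 13 and 2675 reads (496 CPM) in PY79 day 4, against 55993 reads (2641 CPM) in OP50 day 13 and 36051 reads (1365 CPM) in OP50 day 4. It was 4.78-fold lower on PY79 at day 13 (4.61 to 4.95) and 2.75-fold lower at day 4 (2.65 to 2.87), and it fell by 1.86 on the log2 scale (edgeR adjusted p = 0.00422). The call was lost when libraries were scaled to total reads without the 3% most abundant genes (log2 -1.09, adjusted p = 0.0991).

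eIF5A has 2 genes in the worm, of which iff-1 has been described in the germline and iff-2 in the soma. iff-1 was the most abundant member in every library, with 12955 reads (2215 CPM) in PY79 day 13 and 16088 reads (2980 CPM) in PY79 day 4, against 180187 reads (8497 CPM) in OP50 day 13 and 198998 reads (7532 CPM) in OP50 day 4. It ranked 86th and 78th among all genes on PY79 at day 13 and day 4, and 58th and 46th on OP50. It was 3.84-fold lower on PY79 at day 13 (3.77 to 3.91) and 2.53-fold lower at day 4 (2.49 to 2.57), and it fell by 1.64 on the log2 scale (edgeR adjusted p = 0.00943). Scaling to total reads without ribosomal protein genes gave log2 -0.96 (adjusted p = 0.0509), and without the 3% most abundant genes log2 -0.87 (adjusted p = 0.188), so the call for iff-1 rests on the scaling.

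iff-2 was the least abundant member on PY79. It had 88 reads (15.1 CPM) in PY79 day 13 and 84 reads (15.6 CPM) in PY79 day 4, against 3211 reads (151 CPM) in OP50 day 13 and 3745 reads (142 CPM) in OP50 day 4. The difference was the largest among the 7 members, 10.1-fold lower on PY79 at day 13 (8.14 to 12.6) and 9.11-fold lower at day 4 (7.34 to 11.5). On its narrower row it was 16.8-fold lower at day 13 (12.8 to 22.5) and 16.2-fold lower at day 4 (12.2 to 22.1), and with total reads 5.71-fold lower at day 13 (4.62 to 7.14) and 7.53-fold lower at day 4 (6.07 to 9.46). It fell by 3.26 on the log2 scale (edgeR adjusted p = 2.97e-06). Within the eIF5A pair, iff-1 made up 99.3% (99.2 to 99.5) of the reads in PY79 day 13 and 99.5% (99.4 to 99.6) in PY79 day 4, against 98.2% (98.2 to 98.3) in OP50 day 13 and 98.2% (98.1 to 98.2) in OP50 day 4.

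The germline described for iff-1 was represented by 6 marker genes (cgh-1, gld-1, glh-1, glp-1, pgl-1 and puf-5). Their summed level was 238 CPM in PY79 day 13 and 278 CPM in PY79 day 4, against 675 CPM in OP50 day 13 and 603 CPM in OP50 day 4, with no marker at 0 in any library. The lower sum on PY79 was not shared by the whole list, since 1 of 6, the RNA helicase gene glh-1, fell and 0 rose with diet in edgeR's test, and the median log2 difference was -0.12. By the rule on single pairs of libraries, 3 of 6 were lower and 0 higher at day 13, and 1 was lower and 0 higher at day 4. The 5 oocyte markers summed to 129 and 211 CPM on PY79 at day 13 and day 4, against 51.6 and 159 CPM on OP50. In edgeR's test 0 of these 5 rose and 0 fell with diet. Between single libraries 3 were higher and 0 lower at day 13, and 2 were higher and 0 lower at day 4. At day 4 egg-1 had the lower value on PY79, 43.5 CPM against 63.0 CPM on OP50. The 5 intestine markers, mostly the yolk gene vit-2, summed to 429 and 3128 CPM on PY79, against 1422 and 7668 CPM on OP50. This sum does not stand for the list, since in edgeR's test 1 of 5, vit-2, fell and 0 rose with diet. Between single libraries 1 was lower and 0 higher at day 13, while 3 were lower and 2 higher at day 4. The part of tissue make-up in the levels of the elongation factors was not tested.

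On the rows used, the order of the levels differed between the diets at its lower end. On both diets and at both ages the order began with iff-1, eef-1A.1, eef-1G and eef-1B.1. On PY79 it went on with eef-1A.2, eef-1B.2 and iff-2, while on OP50 it went on with eef-1B.2, iff-2 and eef-1A.2. In all 4 libraries the counting intervals of neighbours in this order did not overlap. The place of eef-1A.2 rests on its row: on the narrower rows it came last in every library, so that all 4 libraries shared 1 order. It then had 32 and 28 reads on PY79 at day 13 and day 4 against 52 and 47 reads of iff-2. Counting intervals were not compared in that order, and these PY79 counts are low.

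**Figure D2:**
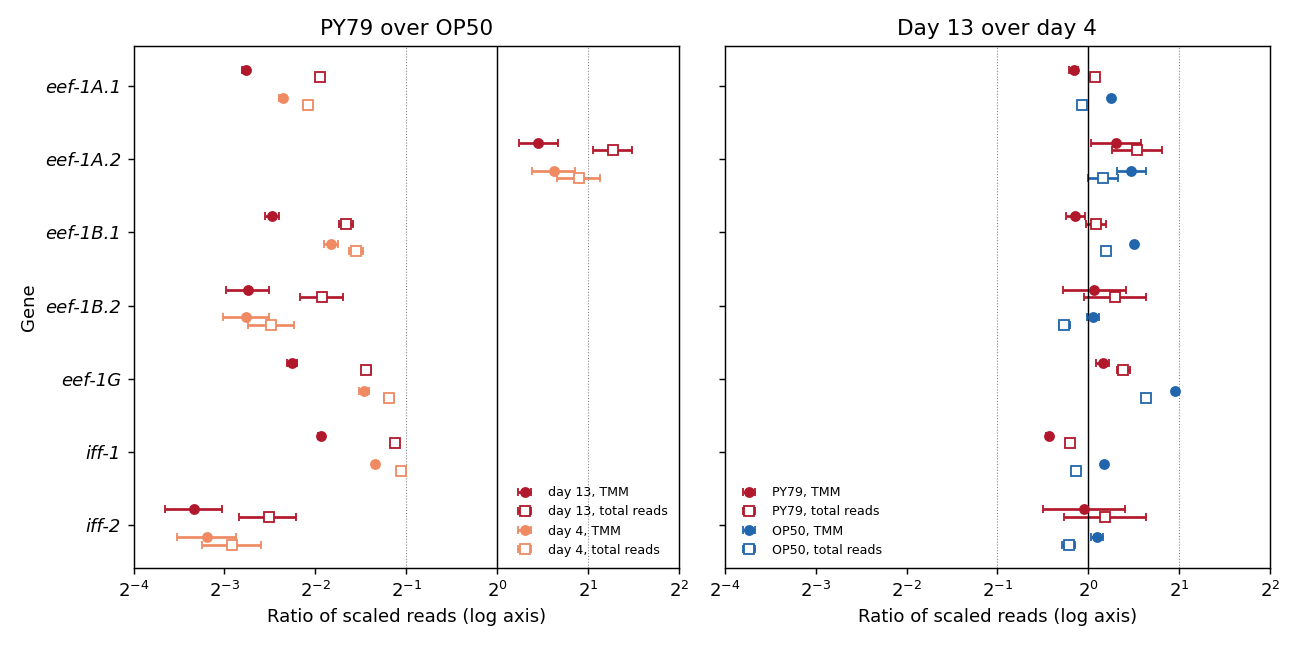
Ratio of scaled reads for each gene on a log axis, PY79 over OP50 (left panel) and day 13 over day 4 (right panel), with exact 95% counting intervals, after TMM scaling (filled circles) and after scaling to total reads (open squares). Dotted lines mark 2-fold. The 6 lower genes stay to the left of the dotted line at 0.5 under both scalings at both ages, while the age ratios lie between the dotted lines.

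Scaling moves the size of the diet difference. With total reads in place of TMM, every log2 ratio of PY79 to OP50 shifts by 0.82 at day 13 and 0.28 at day 4. The same 6 members still fell (edgeR adjusted p between 0.0297 and 0.0372), and eef-1A.2 was then counted as higher on PY79 at day 13. The pooling of the spread also changed in that fit, so its p-values do not differ through scaling alone.

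Ratios of reads inside 1 library do not depend on the scaling. The 7 members together had 0.849 reads per 100 ribosomal protein reads in PY79 day 13 (0.838 to 0.860) and 0.869 in PY79 day 4 (0.858 to 0.879), against 2.31 in OP50 day 13 (2.30 to 2.32) and 2.65 in OP50 day 4 (2.64 to 2.66). Relative to the ribosomal proteins, the summed elongation factor reads were thus fewer on PY79 at both ages. iff-1, the largest part of this sum on PY79, had 45 and 51.5 reads per 10000 ribosomal protein reads on PY79 at day 13 and day 4, against 97.1 and 121.9 on OP50. eef-1A.2 went the other way on the row used, with 0.879 and 0.605 reads per 10000 ribosomal protein reads on PY79 at day 13 and day 4, against 0.360 and 0.368 on OP50.

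The members did not keep the same proportions to each other. eef-1G had 49.1 reads per 100 eEF1A reads in PY79 day 13 (47.1 to 51.2) and 39.8 in PY79 day 4 (38.1 to 41.7), against 35.7 in OP50 day 13 (35.4 to 36.1) and 21.9 in OP50 day 4 (21.6 to 22.2). The ratio was higher on PY79 at each age and higher at day 13 on each diet. The eef-1B pair had 23.9 reads per 100 eEF1A reads in PY79 day 13 (22.6 to 25.3) and 23.6 in PY79 day 4 (22.3 to 24.9), against 20.8 in OP50 day 13 (20.5 to 21.0) and 18.0 in OP50 day 4 (17.8 to 18.3). The eIF5A pair had 198 reads per 100 eEF1A reads in PY79 day 13 (192 to 204) and 241 in PY79 day 4 (234 to 248), against 117 in OP50 day 13 (116 to 118) and 123 in OP50 day 4 (122 to 124). All 3 ratios were thus higher on PY79 at both ages, and that of the eIF5A pair was lower at day 13 on each diet.

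**Figure D3:**
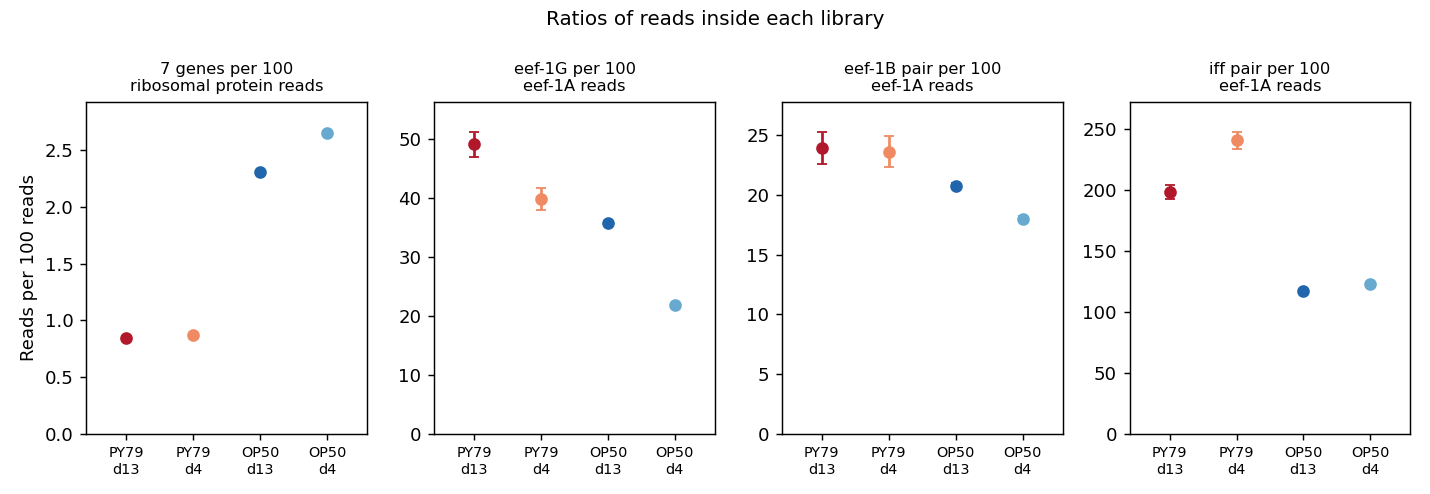
Reads of the 7 genes per 100 ribosomal protein reads, and reads of eef-1G, the eef-1B pair and the iff pair per 100 reads of the eEF1A pair, in PY79 day 13, PY79 day 4, OP50 day 13 and OP50 day 4, with exact 95% counting intervals (1 library per point). The 7 genes had 0.849 and 0.869 reads on PY79 against 2.31 and 2.65 on OP50, whereas the other 3 ratios were higher on PY79 at each age.

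With age no member was called. In edgeR's test 0 of 7 rose and 0 fell with age, where 3.52% of genes tested rose and 4.05% fell. Adjusted p ranged between 0.827 and 0.994, and at an unadjusted p under 0.05 there were again 0 members in edgeR and 0 in DESeq2's Wald test. Between the libraries on PY79, 0 members were higher at day 13 and 0 lower, against 6.31% higher and 7.97% lower among all genes tested. On OP50 the counts were 0 higher and 0 lower, against 14.6% higher and 18.9% lower. The median log2 ratio of the members was -0.05 on PY79 and 0.24 on OP50, and that of all genes tested was -0.11 on PY79 and 0.02 on OP50.

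The age ratio closest to 2-fold was that of eef-1G on OP50, 1.94 (1.91 to 1.96), against 1.12 (1.06 to 1.17) for the same gene on PY79. It stayed above 1 under total-read scaling, at 1.56 on OP50 and 1.31 on PY79. For eef-1B.1 the ratio of day 13 to day 4 was 0.905 (0.841 to 0.975) on PY79 and 1.42 (1.40 to 1.45) on OP50. For eef-1A.2 it was 1.24 (1.02 to 1.5) on PY79 and 1.39 (1.24 to 1.55) on OP50.

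The most abundant members had age ratios on opposite sides of 1 on the 2 diets. The ratio of iff-1 was 0.743 (0.726 to 0.761) on PY79 and 1.13 (1.12 to 1.14) on OP50, and that of eef-1A.1 was 0.895 (0.864 to 0.926) on PY79 and 1.18 (1.18 to 1.19) on OP50. With total reads, iff-1 was at 0.872 on PY79 and 0.909 on OP50, and eef-1A.1 at 1.05 on PY79 and 0.954 on OP50, so these directions depend on the scaling. The intervals of eef-1B.2 and iff-2 included 1 on PY79, at ratios of 1.05 and 0.967, and on OP50 their ratios were 1.04 and 1.07.

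The transcript rows of a gene share reads, and how the reads fell among them differed between the diets for 4 of the 5 members with several rows. For eef-1A.1 the narrower row held at least 99.9% of the reads in every library. For eef-1B.2 the narrower row held 71.2% of the reads of the row used in PY79 day 13 and 65.2% in PY79 day 4, against 97.2% in OP50 day 13 and 98.5% in OP50 day 4. For iff-2 it held 59.1% in PY79 day 13 and 56.0% in PY79 day 4, against 98.4% in OP50 day 13 and 99.6% in OP50 day 4. For eef-1G it held 90.3% and 86.9% on PY79 at day 13 and day 4, against 98.0% and 98.3% on OP50. In these 3 genes and in eef-1A.2 a larger part of the reads lay outside the narrower row in both PY79 libraries.

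This difference was not particular to the elongation factors. Over 702 genes with several rows and enough reads, the median share in the narrower row was 87.2% in PY79 day 13 and 87.0% in PY79 day 4, against 96.0% in OP50 day 13 and 97.7% in OP50 day 4. The narrower row had to hold at least 50% of the reads in OP50 day 4 and had no such minimum in PY79. Part of this gap is therefore built into the choice of row. OP50 day 13, to which no minimum applied either, was at 96.0%. The part of the layout of reads along genes in the diet differences was not tested. With the narrower row used for every member, all 7 were counted as lower on PY79 at both ages. Other genes kept their usual rows in that count, so no share over all genes on narrower rows stands beside it. eef-1B.1 and iff-1 have 1 row each, and their diet differences do not rest on the choice of a row.

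**Figure D4:**
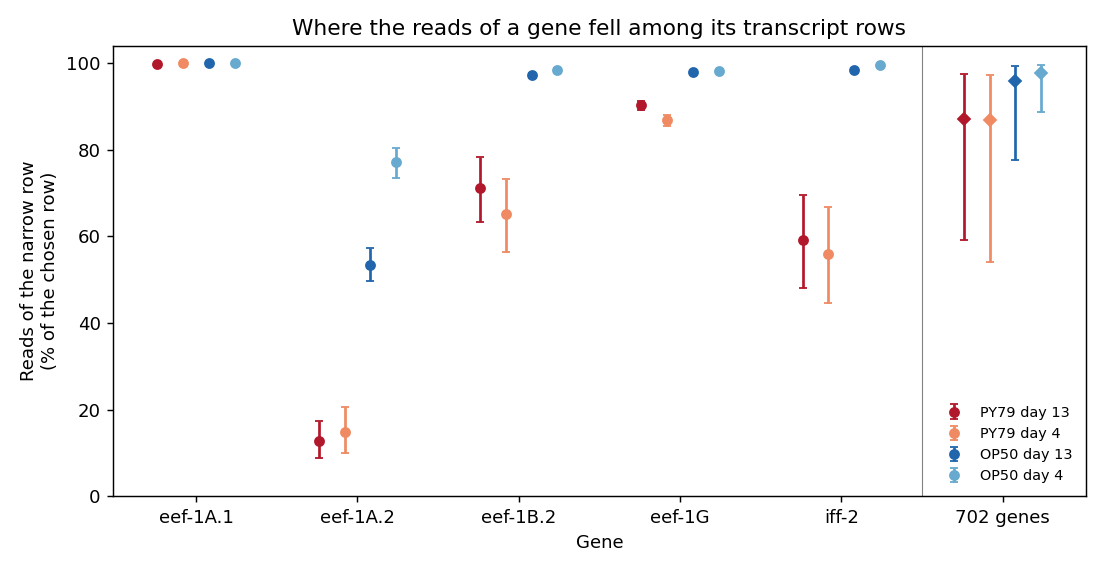
Reads of the narrower transcript row as a percentage of the reads of the row used, for the 5 members with several rows, with exact 95% intervals. Diamonds show the median and the bars the quartiles over 702 genes, and eef-1A.2 stands lowest on PY79, at 12.6% and 14.8% against 53.5% and 77.2% on OP50. The rule for the narrower row sets a minimum share in OP50 day 4 only.

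Of the 7 members, 5 overlap another annotated gene in Ensembl release 115. eef-1A.1, eef-1B.1 and iff-1 each overlap a gene on the opposite strand, iff-2 holds a small nucleolar RNA on its own strand, and eef-1G overlaps genes on both strands. How strand was treated in counting was not given in the sources used here, and reads of such partners cannot be told apart from those of the members. eef-1A.2 and eef-1B.2 overlap no other annotated gene.

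Genes listed as partners in elongation and termination were mostly too low for their values to be read with any precision. The list also holds mitochondrial elongation factors, among them tufm-1 and gfm-1. Of its 17 genes, 2 fell and 2 rose with diet in edgeR's test, where 17.0% of all genes tested fell and 14.8% rose. The median log2 difference was 0.82, and 7 genes had at least 100 reads over the 4 libraries. The 2 that rose had few reads. abce-1, which acts in the recycling of ribosomes, had 12 and 14 reads on PY79 at day 13 and day 4, against 16 and 11 on OP50 (log2 2.01, adjusted p = 0.0198), and dph-7, which acts in the modification of eEF2, had 15 and 11 reads, against 24 and 10 on OP50 (log2 1.72, adjusted p = 0.042). Both are named here after their values were seen, and neither was called by DESeq2's Wald test (adjusted p = 0.234 for abce-1 and 0.301 for dph-7), where 0 of 17 partners rose. dhps-1 encodes deoxyhypusine synthase, which begins the making of hypusine on eIF5A. It had 93 and 75 reads on PY79 at day 13 and day 4, against 1382 and 1302 reads on OP50, and it fell with diet (log2 -1.93, edgeR adjusted p = 0.00579), a call that was lost with total reads (adjusted p = 0.0881). dohh-1, which encodes the hydroxylase that completes hypusine, had 24 and 23 reads on PY79, against 91 and 54 on OP50 (log2 0.48, adjusted p = 0.558).

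erfa-1 encodes the release factor that recognizes stop codons. It had 41 and 49 reads on PY79 at day 13 and day 4, against 912 and 1200 reads on OP50, and it fell with diet (log2 -2.47, edgeR adjusted p = 0.000718). The GTPase that works with it, erfa-3, had 25 and 21 reads on PY79, against 61 and 151 on OP50 (log2 0.00, adjusted p = 0.996). The remaining partners over the read minimum were not called by edgeR: tufm-1 and gfm-1, mitochondrial elongation factors, had log2 differences of 1.19 (adjusted p = 0.11) and 1.15 (adjusted p = 0.118), and dph-2, which acts in the modification of eEF2, 0.57 (adjusted p = 0.471). Between single libraries gfm-1 was higher on PY79, by 2.44-fold at day 13 (1.5 to 3.94) and 2.02-fold at day 4 (1.23 to 3.24), and tufm-1 was 3.54-fold higher at day 4 (2.55 to 4.89). dohh-1 was 2.08-fold higher on PY79 at day 4 (1.22 to 3.45) and not called at day 13 (ratio 0.956). On OP50 dohh-1 was also 2.1-fold higher at day 13 than at day 4 (1.48 to 3). By the same rule dhps-1 and erfa-1 were lower on PY79 at both ages.

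Other lists of the translation machinery had median diet differences nearer to 0. Of 81 cytosolic ribosomal protein genes tested, 19 fell and 0 rose with diet (median log2 -0.65), and 27 fell and 0 rose at an unadjusted p under 0.05. DESeq2's Wald test had 27 that fell and 0 that rose, but with total reads 15 fell and 6 rose. Of 33 initiation factor genes, 6 fell and 6 rose (median 0.18), where 17.0% of all genes tested fell and 14.8% rose. These lists were drawn by gene symbol. Those that fell were ife-1, ife-2 and ife-5, which encode cap-binding eIF4E proteins, eif-1, eif-6 and eif-4A3. In each PY79 library ife-5 had 1 read and eif-4A3 had 2 reads. Those that rose were eif-3.D, eif-3.H, eif-3.K and eif-3.L, subunits of eIF3, with clu-1 and the eIF4G gene ifg-1. With total reads 2 fell (ife-1 and ife-5) and 7 rose. In DESeq2's Wald test 5 fell and 5 rose, and of the genes named eif-4A3 and eif-3.D were not called. Of 30 genes of aminoacyl-tRNA synthetases, which charge tRNAs, 2 fell (dars-1 and pars-2). Another 5 rose (iars-1, nars-1, rars-1, rars-2 and wars-1), and the median was 0.55. In DESeq2's Wald test 3 fell and 1 rose, and of the 5 named genes that rose only rars-2 was called (adjusted p = 0.0136). The genes of these lists, too, were named after their values were seen. Of 66 mitochondrial ribosomal protein genes, 12 fell and 6 rose (median 0.07), while with total reads 3 fell and 9 rose and in DESeq2's Wald test 11 fell and 1 rose. Over all genes tested, 484 fell and 1401 rose with total reads, and 1284 fell and 517 rose in DESeq2's Wald test. The split of rises and falls thus differed between these fits, in these lists and over all genes. The members had a median of -2.16 in the main fit, and the difference between lists was not tested.

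The genes with the pattern nearest to each member were found among 992 genes that had at least 100 reads in every library, by the Euclidean distance of log2 CPM centred on each gene's mean over the 4 libraries. For eef-1A.1 they were sdhd-1 (0.076), a subunit of succinate dehydrogenase, and dars-1 (0.157), an aspartyl-tRNA synthetase. For iff-1 they were romo-1 (0.0663) and rps-7 (0.0768), a protein of the small ribosomal subunit. rps-7 had 13758 and 16823 reads on PY79 at day 13 and day 4, against 185314 and 196752 reads on OP50, close to iff-1 in level as well as in pattern.

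For the eEF1B complex the nearest genes were sna-3 (0.0765) and T26G10.1 (0.13) for eef-1B.1, pyp-1 (0.134) and spr-2 (0.138) for eef-1B.2, and tsr-2 (0.0994) and ZK616.5 (0.119) for eef-1G. The distances were larger for eef-1A.2, with lpd-7 (0.235) and Y23H5A.2 (0.27), and for iff-2, with pid-3 (0.276) and T02H6.11 (0.353). With 4 libraries in the measure, likeness of pattern is a description only.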

How the data were processed

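Poly(A) RNA of whole N2 worms was sequenced as 3' end-enriched libraries, 1 for each combination of diet and day. The deposited values are raw read counts for each annotated transcript, not normalized. The submitters' processing notes name Bowtie 0.12.7, while build, annotation release, counter and strand setting were not given in the sources used here. Rows of a gene share reads and were not summed: per gene the row with most reads over the 4 libraries was used. There were 24775 rows, and the 2 that name no gene held 0 reads. Symbols and overlaps came from Ensembl release 115, which matched 16760 genes.

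Genes with at least 10 reads in 1 library were kept. TMM factors were 1.31 for PY79 day 13, 1.12 for PY79 day 4, 0.743 for OP50 day 13 and 0.922 for OP50 day 4. In that order, 3 reads, the floor, equal 0.513, 0.556, 0.142 and 0.114 CPM. Ratios carry exact 95% intervals (Clopper-Pearson on the split of reads, SciPy 1.17.1). Where no molecular identifier marks them, reads may be copies of 1 molecule, so both interval and floor cover counting error only. edgeR 4.0.16 (R 4.3.3, glmQLFit and glmQLFTest) fitted diet and day over 9032 genes, with Benjamini-Hochberg adjustment and a common dispersion of 0.138. The fit was run on simulated counts in which genes changed with age only and the spread was smaller than that fitted here. The test of diet was not checked in that way. Alternatives were total reads, DESeq2 1.42.0 size factors and Wald test, total reads without ribosomal protein genes or the 3% most abundant genes, sums over rows, other filters, thinned OP50 libraries and, chosen after seeing the data, the narrower row (that with the fewest reads among rows holding at least 50% of the reads of the row used in OP50 day 4). The 702 genes of that check had at least 50 reads in each library. Named genes were all members, their 2 nearest patterns each, and partners with at least 100 reads. The members and lists were chosen with earlier results of these data known.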

Additional observations from a re-analysis of the deposited data

Results flagged for a closer look

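The ratio of day 13 to day 4 lay on opposite sides of 1 on the 2 diets, with both intervals excluding 1, for 3 genes. This difference between the diets was not tested. For eef-1A.1 it was 0.895 on PY79 and 1.18 on OP50, for eef-1B.1 0.905 on PY79 and 1.42 on OP50, and for iff-1 0.743 on PY79 and 1.13 on OP50. With total reads in place of TMM the ratios were 1.05 on PY79 and 0.954 on OP50 for eef-1A.1, 1.06 on PY79 and 1.14 on OP50 for eef-1B.1, and 0.872 on PY79 and 0.909 on OP50 for iff-1. Of these 3 only eef-1A.1 then remained on opposite sides of 1, with the sides exchanged. With total reads eef-1B.2 (1.23 on PY79 and 0.834 on OP50) and iff-2 (1.13 and 0.860) also lay on opposite sides of 1, though their PY79 intervals included 1.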

How the results depend on the processing

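No paired analysis was possible because each group holds 1 library. The 6 members that fell with diet did so with total reads, DESeq2 size factors, sums over rows, no filter, a stricter filter and DESeq2's Wald test. The count was 5 without ribosomal protein genes in the scaling and 4 without the 3% most abundant genes. At day 4 the last 2 scalings left 4 members lower, since eef-1G (0.534 and 0.616) and iff-1 (0.582 and 0.672) were then less than 2-fold lower. On the narrower row eef-1A.2 turned to 0.324 at day 13, 0.296 at day 4 and -1.69 on the log2 scale. The number of members higher on PY79 became 1 (eef-1A.2) at day 13 with total reads and under those 2 scalings, and 1 at day 4 under those 2. The number higher with age on OP50 became 1 (eef-1G) with DESeq2 size factors, without the 3% most abundant genes, under a minimum of 10 reads per library and with OP50 thinned to the PY79 totals. The thin PY79 counts of iff-2 and eef-1B.2 limit their precision.

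Over all genes, the counts that rose and fell with age were 318 and 366, against 0 and 1 with total reads, 92 and 101 under that minimum and 164 and 149 with DESeq2's Wald test. Those with diet were 1334 and 1538, and the alternatives ranged between 517 and 2714 that rose and between 484 and 1770 that fell. With total reads the spread was also pooled less, so the effect of scaling alone cannot be read from these counts.

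Values inside a library are given for PY79 day 13, PY79 day 4, OP50 day 13 and OP50 day 4. With rows summed, which counts shared reads more than once, the share of eef-1A.2 was 7.18%, 5.41%, 1.09% and 1.06%, that of iff-1 98.3%, 98.7%, 95% and 94.7%, and that of eef-1B.2 16%, 13.6%, 20.3% and 26.1%. Per 100 eEF1A reads, eef-1G then had 109.4, 86.8, 87.4 and 53.6, the eef-1B pair 12.4, 12.2, 11.5 and 10.3, and the iff pair 96.8, 118, 60.2 and 63.4. The members had 0.575, 0.544, 1.66 and 1.76 reads per 100 ribosomal protein reads. On the narrower row the share of eef-1A.2 was 0.504%, 0.427%, 0.229% and 0.281%, that of iff-1 was 99.6% and 99.7% on PY79, and that of eef-1B.2 was 7.12% and 5.72% on PY79.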
